A study of Homo sapiens with 28 samples.

Results

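The genes described here are 10 antioxidant genes, most of them known targets of the transcription factor NRF2: the glutathione peroxidases GPX1, GPX2 and GPX4, the glutathione supply genes GCLC, GCLM and SLC7A11, the thioredoxin system genes TXNRD1 and SRXN1, and the quinone and heme enzymes NQO1 and HMOX1. They were picked by symbol, and all 10 were found among the 19662 symbols of each of 2 RPKM tables (reads scaled by gene length and by the mapped reads of the library). GPX2 was put on the list because it was much higher after ONECUT2 silencing in PC3 cells, above all in hypoxia, so its PC3 values are given as a description with no test. RNA was sequenced in 8 libraries of PC3 cells and 8 libraries of LNCaP cells, both established prostate cancer lines. PC3 cells received a control siRNA (siCtrl) or an siRNA against the transcription factor ONECUT2 (siOC2), and LNCaP cells carried an empty vector or a Flag-tagged ONECUT2 vector, each in normoxia or in hypoxia at 0.2% O2. Every group has 2 libraries. Each siOC2 group holds 1 library of siRNA1 (its replicate 1) and 1 of siRNA2 (its replicate 2), and so has no repeat of either sequence. Nothing in the labels says that the libraries of a group came from separate cultures, so the p-values measure only the spread between these libraries, which may be technical. In PC3 cells that spread also includes the difference between the siRNAs.

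NRF2, encoded by NFE2L2, is held in the cytoplasm and sent for degradation by KEAP1. Oxidants and electrophiles modify KEAP1, NRF2 then builds up, and with a small MAF protein it binds antioxidant response elements (AREs) near genes of glutathione and thioredoxin metabolism. GPX1, GPX2, GPX4 and TXNRD1 code for selenoproteins, whose synthesis also needs selenium, and SLC7A11 and HMOX1 respond to other stress pathways besides NRF2. The products of these genes take part in the removal of hydrogen peroxide, lipid peroxides and quinones, which was not measured here.

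GPX2, the gene that stood apart in PC3 cells, lies at chr14:65405870-65409464 on the minus strand of GRCh37. Its promoter, the 300 bases before the start of the main annotated transcript (chr14:65409464-65409763), is shown because it holds a match to the ARE core TGACNNNGC, given in capitals (reverse complement of the core as read on the gene's strand).

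GPX2: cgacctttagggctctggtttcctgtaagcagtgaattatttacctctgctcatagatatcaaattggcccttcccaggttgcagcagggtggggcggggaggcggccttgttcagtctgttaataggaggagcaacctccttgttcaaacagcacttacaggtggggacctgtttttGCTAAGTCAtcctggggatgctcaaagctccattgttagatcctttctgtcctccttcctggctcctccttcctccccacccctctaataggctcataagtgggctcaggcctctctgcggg

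The match runs from 122 to 114 bases before the start. GCLM and TXNRD1 were the other members with the core in the same 300 bases, and the 30 bases around each match are shown for comparison, 5′ to 3′ on the gene's strand, with the core in capitals (chr1:94375001-94375030, minus strand, and chr12:104609448-104609477, plus strand).

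GCLM: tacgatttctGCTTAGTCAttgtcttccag
TXNRD1: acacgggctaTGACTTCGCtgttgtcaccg

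The core was thus found on either strand in 3 of 10 members, and in 13.1% of the 19867 protein-coding promoters of this length. The ONECUT motif, searched as ATTGAT or ATCGAT, was found in GCLC and TXNRD1, against 5.71% of all promoters, and the hypoxia response core, searched as ACGTG or GCGTG, in GPX1, GPX4, GCLC, GCLM and HMOX1, against 56.3%. Neither was found in the GPX2 window. These are matches of letters in a short window, and binding was not examined here.

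The lines differed in KLK3, the gene of prostate-specific antigen and a marker of LNCaP cells, which was at 1842 to 3997 RPKM in LNCaP cells and listed at 0 in PC3 cells. ONECUT2 itself was at 1.16 and 1.77 RPKM with siCtrl and at 0.204 and 0.276 RPKM with siOC2 in normoxia, and at 0.550 and 0.648 against 0.125 and 0.214 RPKM in hypoxia. ONECUT2 is listed without a value in the LNCaP libraries with the ONECUT2 vector, so the overexpression could not be checked. CA9, a textbook hypoxia target, was higher in every hypoxic than in every normoxic library of both lines. The relative depth of the libraries, read from the steps between low RPKM, reached down to 0.304 of the deepest library in PC3 cells and 0.547 in LNCaP cells. All 10 members were at 1 RPKM or more in all 16 libraries and were tested in both lines.

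The members covered a wide range of levels per gene length. In PC3 cells with siCtrl in normoxia, TXNRD1 (thioredoxin reductase 1) was at 7475 and 5275 RPKM, GPX4 at 2442 and 1999 RPKM, and GPX1 at 506 and 469 RPKM. NQO1 followed at 42.7 and 46.0 RPKM, above GCLC at 26.6 and 31.1 RPKM and SRXN1 at 28.4 and 26.7 RPKM, whose libraries overlapped each other. GCLM was at 21.5 and 21.0 RPKM, HMOX1 at 4.59 and 4.77 RPKM, and SLC7A11 at 3.37 and 2.64 RPKM. GPX2 had no stable place in this order, since its control libraries were at 1.39 and 31.9 RPKM. In LNCaP cells with the empty vector in normoxia the first 4 genes came in the same order, from TXNRD1 at 8445 and 8624 RPKM to NQO1 at 78.0 and 80.1 RPKM. SRXN1 stood at 21.2 and 25.2 RPKM, SLC7A11 (13.8 and 12.2 RPKM) overlapped GCLC (13.1 and 10.9 RPKM), GCLM was at 10.3 and 9.84 RPKM, GPX2 at 7.07 and 5.35 RPKM, and HMOX1 at 3.03 and 4.50 RPKM. The tables of the lines were made separately, and their levels were set side by side without a test. TXNRD1 ranked among the 10 highest of all symbols in every library, and first in the hypoxic siCtrl replicate 1 of PC3. The annotation used here gives this gene 19 transcripts, the shortest of 400 bases and the main one of 3860 bases, and their part in the TXNRD1 level was not tested.

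**Figure D1:**
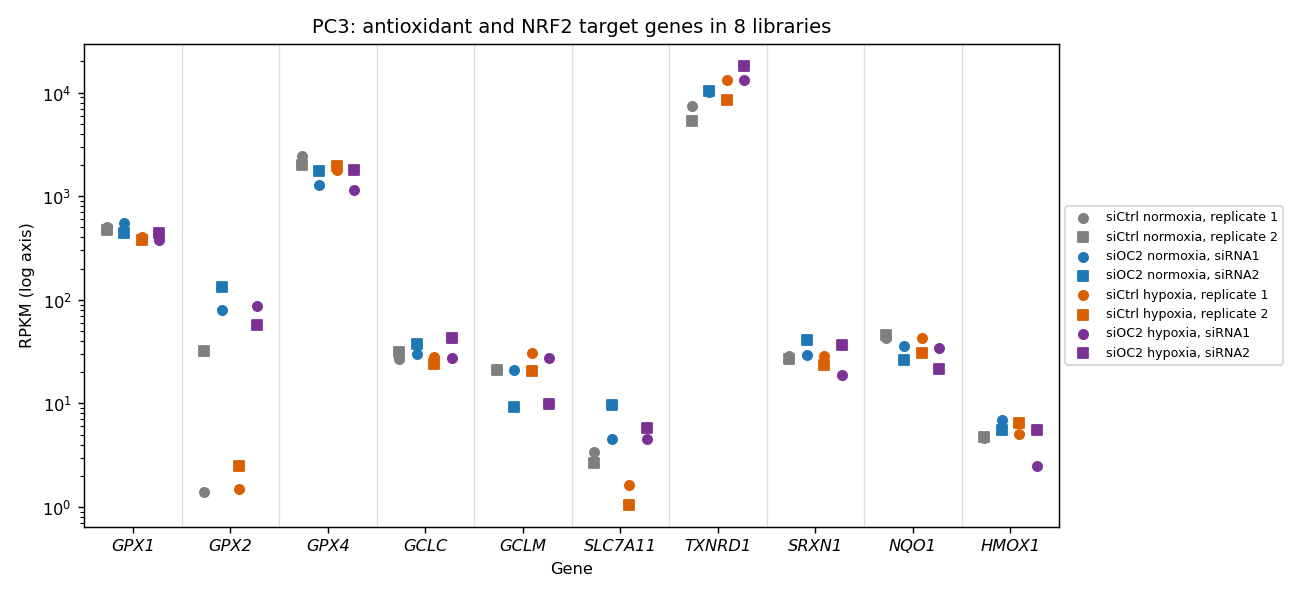
RPKM of the 10 genes (log axis) in the 8 PC3 libraries, with circles for replicate 1 or siRNA1 and squares for replicate 2 or siRNA2. GPX2 spans 1.39 to 133 RPKM, while GPX1, GPX4 and GCLC stay within narrow ranges and both siRNA2 libraries sit low for GCLM and NQO1.

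Of the 10 genes, GPX2 and SLC7A11 had the largest log2 differences between siOC2 and siCtrl in PC3 cells at both oxygen levels. For GPX2 this describes the values it was chosen on. GPX2, which reduces hydrogen peroxide with glutathione and is best known from the gut epithelium, was at 1.39 and 31.9 RPKM with siCtrl and at 80.5 and 133 RPKM with siOC2 in normoxia. In hypoxia it was at 1.49 and 2.47 RPKM with siCtrl and at 87.9 and 56.8 RPKM with siOC2. The groups did not overlap at either oxygen level, and the siCtrl libraries lay between 1.39 and 2.47 RPKM except normoxic siCtrl replicate 2. The log2 difference between siOC2 and siCtrl was 5.13 (SE 1.15) in hypoxia, the 5th highest of 12214 genes, and 3.91 (SE 1.15) in normoxia, the 6th highest. In normoxia that difference was 6.12 without siCtrl replicate 2 and 1.69 without siCtrl replicate 1. These are the values that chose GPX2.

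The other glutathione peroxidases of the list, GPX1 and GPX4, did not share the GPX2 pattern. GPX1, the abundant cytosolic enzyme, was at 506 and 469 RPKM with siCtrl and 548 and 444 RPKM with siOC2 in normoxia, and at 399 and 374 against 374 and 441 RPKM in hypoxia, so the groups overlapped at both oxygen levels. GPX4, which reduces lipid peroxides in membranes, was at 2442 and 1999 against 1268 and 1751 RPKM in normoxia and at 1776 and 1934 against 1158 and 1797 RPKM in hypoxia. Its normoxic siOC2 libraries were below the siCtrl libraries, with a log2 difference of -0.57 (SE 0.27, limma adjusted p = 0.581).

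Among the glutathione supply genes, SLC7A11 had the largest difference. SLC7A11, the cystine and glutamate exchanger xCT, was at 3.37 and 2.64 RPKM with siCtrl and 4.58 and 9.57 RPKM with siOC2 in normoxia, and at 1.65 and 1.05 against 4.58 and 5.81 RPKM in hypoxia. The groups did not overlap at either oxygen level. The log2 difference was 1.13 (SE 0.43, limma adjusted p = 0.481) in normoxia and 1.89 (SE 0.43) in hypoxia, where no test is given because that contrast was part of the choice of genes. GCLC, the catalytic subunit of glutamate-cysteine ligase, was at 26.6 and 31.1 against 30.04 and 37.9 RPKM in normoxia and at 28.4 and 23.98 against 27.4 and 42.6 RPKM in hypoxia, with overlap at both. GCLM, its modifier subunit, was at 21.5 and 21.0 against 21.1 and 9.25 RPKM and at 30.4 and 20.5 against 27.6 and 9.77 RPKM, again with overlap.

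In the thioredoxin system, TXNRD1 was at 7475 and 5275 RPKM with siCtrl and 10117 and 10441 RPKM with siOC2 in normoxia, without overlap (log2 difference 0.71, SE 0.27, limma adjusted p = 0.482). In hypoxia its siCtrl libraries were at 13192 and 8424 RPKM and its siOC2 libraries at 13163 and 18076 RPKM, which overlapped. SRXN1, sulfiredoxin, which repairs overoxidized peroxiredoxins, was at 28.4 and 26.7 against 29.2 and 41.3 RPKM in normoxia and at 28.9 and 23.6 against 18.7 and 36.3 RPKM in hypoxia.

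NQO1, the quinone reductase that is the usual reporter of NRF2 activity, was at 42.7 and 46.0 RPKM with siCtrl and 36.2 and 26.3 RPKM with siOC2 in normoxia, and at 42.9 and 30.6 against 34.3 and 21.7 RPKM in hypoxia. The difference did not pass the test in normoxia (limma adjusted p = 0.684). HMOX1, heme oxygenase 1, was at 4.59 and 4.77 against 6.99 and 5.48 RPKM in normoxia and at 5.04 and 6.43 against 2.47 and 5.50 RPKM in hypoxia. NQO1 and GCLM were thus not higher with siOC2 at either oxygen level, and HMOX1 was higher in normoxia alone, without passing the test (limma adjusted p = 0.844).

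Counted over the list, 2 of 10 members, GPX2 and SLC7A11, met the limits of the study (a fold change over 2 and, in the fit, an unadjusted P under 0.05) with higher values in siOC2 in normoxia, against 3.62% of the 12214 genes tested, and none was lower, against 1.59%. In hypoxia GPX2 and SLC7A11 met them as well, beside 3.55% of all genes, and none did so with lower values, beside 3.95%. The libraries of the groups did not overlap for 7 members in normoxia, against 46.4% of all genes, and for 2 in hypoxia, against 38.4%. These counts describe the libraries and are no test, and nothing is read from the shares, since the choice of GPX2 used these contrasts. None of the other 9 members passed an adjusted p of 0.05 in normoxia, where 1 gene of 12214 did, a lower one (0.00819%). The median log2 difference of the 10 was 0.28 in normoxia and 0.03 in hypoxia, beside 0.13 and -0.03 for all genes tested. No member met the limits for a silencing effect that differed between the oxygen levels, against 0.246% of all genes higher and 0.696% lower. The log2 interaction was 1.22 (SE 1.62) for GPX2 and 0.77 (SE 0.61) for SLC7A11. No test is given, since the interaction includes the hypoxic silencing values.

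Some members differed between the siRNA1 and siRNA2 libraries at both oxygen levels. GCLM was at 9.25 and 9.77 RPKM in the siRNA2 libraries and at 20.5 to 30.4 RPKM in the other 6 PC3 libraries. NQO1 was at 26.3 and 21.7 RPKM with siRNA2 and at 30.6 to 46.0 RPKM in the other 6. Both siRNA2 libraries were thus the lowest for 2 of 10 members, against 6.44% of all genes tested. GCLC (37.9 and 42.6 RPKM), SRXN1 (41.3 and 36.3 RPKM) and SLC7A11 (9.57 and 5.81 RPKM) were highest in the siRNA2 libraries, which was the case for 21% of all genes. With siRNA1, GPX4 was at 1268 and 1158 RPKM, below its 1751 to 2442 RPKM in the other 6 libraries, as were 12.3% of all genes, and no member was highest in both siRNA1 libraries, against 6.92%. Each siRNA has 1 library per oxygen level, so these differences were not tested. The hypoxic siRNA1 library was the shallowest of the PC3 libraries (relative depth 0.304, against 0.763 for hypoxic siRNA2). Its upper quartile was 9.50 RPKM, against 12.86 RPKM for hypoxic siRNA2, while the normoxic libraries were at 12.58 and 12.55 RPKM. The part of library scale in these differences was not tested. GPX2 was high with both: the log2 difference from the mean of the siCtrl libraries was 3.55 with siRNA1 and 4.27 with siRNA2 in normoxia, and 5.44 and 4.81 in hypoxia. For SLC7A11 it was 0.60 and 1.65 in normoxia and 1.72 and 2.06 in hypoxia.

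**Figure D2:**
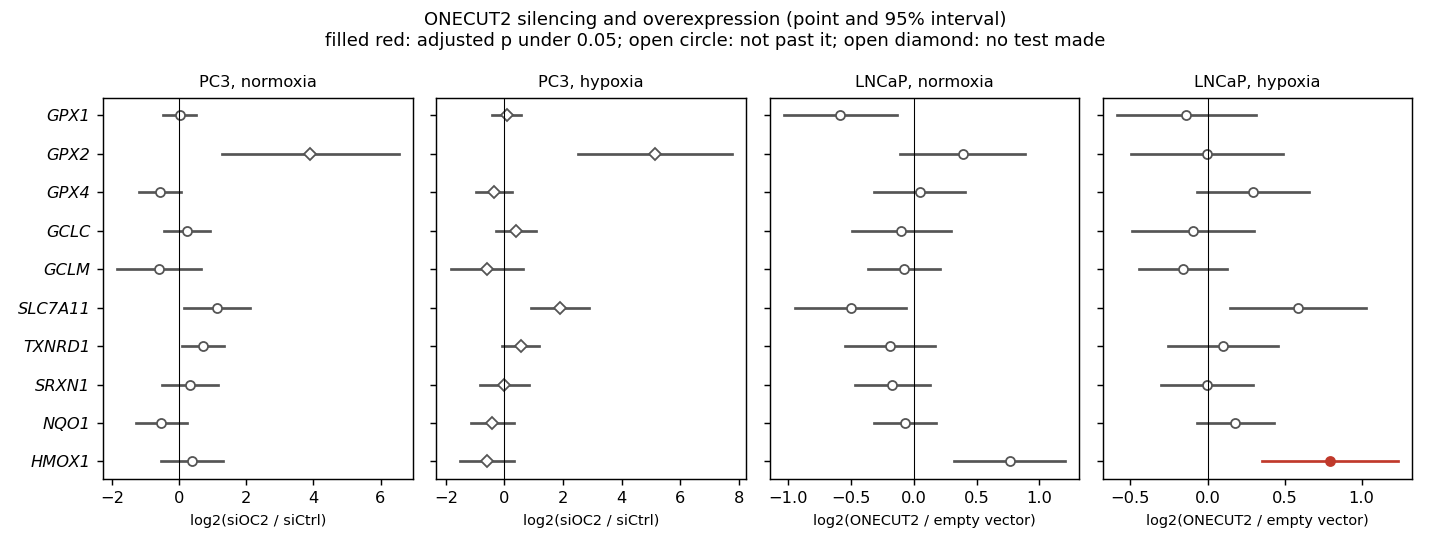
Log2 difference of each gene between siOC2 and siCtrl in PC3 cells and between ONECUT2 and empty vector in LNCaP cells, with 95% intervals; each panel has its own scale. GPX2 (3.91 and 5.13) and SLC7A11 (1.13 and 1.89) lie farthest to the right in PC3 cells. Open diamonds (GPX2 in normoxic PC3 cells and all genes in hypoxic PC3 cells) were not tested, and their intervals are descriptions. Of the tested points, HMOX1 in hypoxic LNCaP cells (0.80) is the one filled.

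Hypoxia gave few differences among the members in PC3 cells by this fit, and none of those tested passed an adjusted p of 0.05. The fit shares 1 spread over all 4 PC3 groups, which includes the difference between siRNA1 and siRNA2. Over all genes, 33 passed with siCtrl (all higher) and 1 with siOC2. In fits of only the groups compared, 1013 passed with siCtrl and 0 with siOC2. A lack of calls in PC3 cells is therefore not read as a lack of response. With siCtrl, SLC7A11 was at 3.37 and 2.64 RPKM in normoxia and 1.65 and 1.05 RPKM in hypoxia, without overlap, a log2 difference of -1.12 (SE 0.43, limma adjusted p = 0.598). It was the 1 member of 10 lower by more than 2-fold at an unadjusted P under 0.05, against 1.63% of the 12214 genes, and none was higher by that rule, against 2.23%. This call of SLC7A11 was lost without either normoxic siCtrl library or without hypoxic siCtrl replicate 2, and its normoxic silencing call without either siCtrl library or without siRNA2. TXNRD1 was higher in hypoxia, at 13192 and 8424 against 7475 and 5275 RPKM, with a log2 difference of 0.75 (SE 0.27, limma adjusted p = 0.566). GPX2 differed by -1.77 on the log2 scale (SE 1.15), by 0.44 without normoxic siCtrl replicate 2 and by -3.98 without replicate 1, so its direction rested on 1 library. GPX1 was at 506 and 469 RPKM in normoxia and 399 and 374 RPKM in hypoxia, without overlap, as were 55% of all genes, and did not pass the test (limma adjusted p = 0.821).

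With siOC2, no member was called in hypoxia in either direction, against 1.11% of all genes higher and 2.35% lower. SLC7A11 was at 4.58 and 9.57 RPKM in normoxia and 4.58 and 5.81 RPKM in hypoxia, and GPX2 at 80.5 and 133 RPKM and 87.9 and 56.8 RPKM, both with overlap. TXNRD1 was again higher in hypoxia, at 13163 and 18076 against 10117 and 10441 RPKM, without overlap, as 28.3% of all genes were, and without passing the test (log2 difference 0.59, SE 0.27, limma adjusted p = 0.719). By the stricter rule of an adjusted p under 0.05, none of the other 9 members passed for hypoxia in PC3 cells with siCtrl or siOC2, GPX2 not being tested, where 0.27% and 0.00819% of all genes did.

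**Figure D3:**
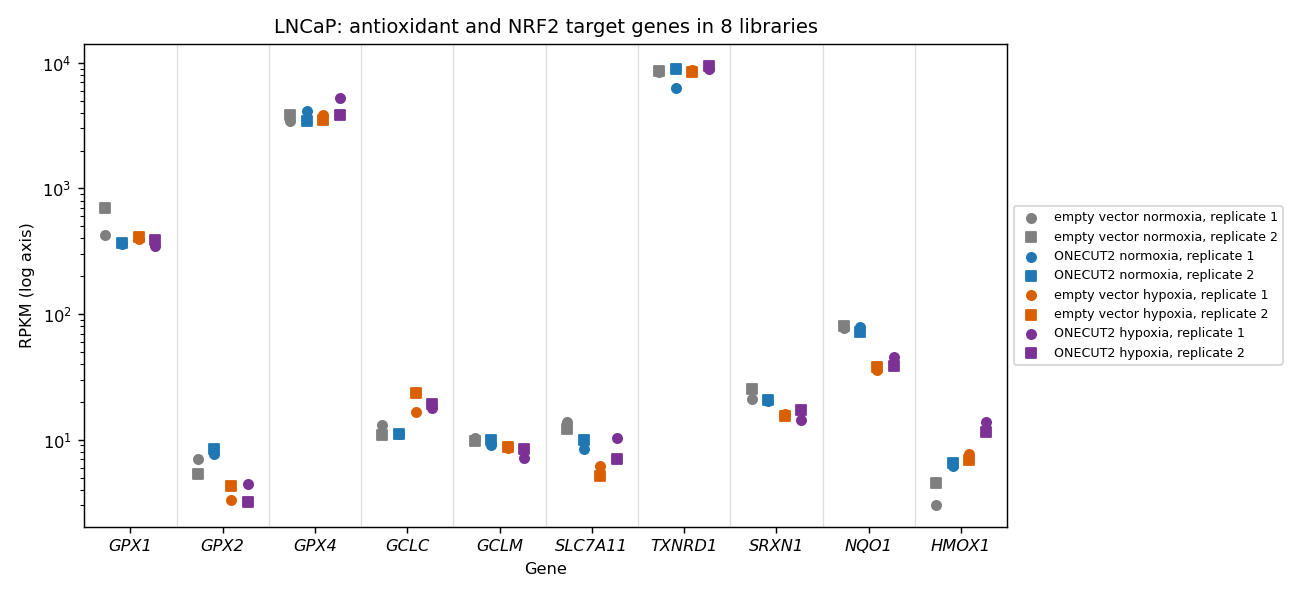
RPKM of the 10 genes (log axis) in the 8 LNCaP libraries, with circles for replicate 1 and squares for replicate 2. The replicates lie close together for most genes, and NQO1 drops from 72.5 to 80.1 RPKM in normoxia to 36.1 to 45.5 RPKM in hypoxia.

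In LNCaP cells with the empty vector, 6 of the 10 members differed between hypoxia and normoxia at an adjusted p under 0.05. NQO1, SLC7A11, SRXN1 and GPX2 fell, and GCLC and HMOX1 rose. These are 4 lower, against 14.1% of the 12283 genes tested, and 2 higher, against 18.2%. By the rule of a 2-fold change at an unadjusted P under 0.05, NQO1 and SLC7A11 were lower, against 2.34% of all genes, and none was higher, against 5.6%. The median log2 difference of the members was -0.33, beside 0.02 for all genes tested, and the libraries of 69.4% of all genes did not overlap (68.1% with ONECUT2).

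NQO1 was at 78.0 and 80.1 RPKM in normoxia and 36.1 and 37.6 RPKM in hypoxia with the empty vector, a log2 difference of -1.10 (SE 0.11, limma adjusted p = 0.000314). With ONECUT2 it was at 78.3 and 72.5 RPKM and at 45.5 and 38.4 RPKM, a difference of -0.85 (SE 0.11, limma adjusted p = 0.00142). NQO1 passed in both arms whichever library was left out. HMOX1 was at 3.03 and 4.50 RPKM in normoxia and 7.69 and 6.84 RPKM in hypoxia with the empty vector (log2 difference 0.95, SE 0.19, limma adjusted p = 0.00760), and at 6.22 and 6.47 against 13.9 and 11.6 RPKM with ONECUT2 (0.99, SE 0.19, limma adjusted p = 0.00837). HMOX1 was thus lowest in normoxic cells with the vector and highest in hypoxic cells with ONECUT2. Its call was lost only without hypoxic replicate 1 of the arm in question, at an adjusted p of 0.0554 with the vector and 0.0594 with ONECUT2.

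Of the glutathione supply genes, GCLC and SLC7A11 moved in opposite directions. GCLC was at 13.1 and 10.9 RPKM in normoxia and 16.7 and 23.6 RPKM in hypoxia with the vector, a log2 difference of 0.73 (SE 0.17, limma adjusted p = 0.0143), and at 11.2 and 11.1 against 17.8 and 19.3 RPKM with ONECUT2, also 0.73 (SE 0.17, limma adjusted p = 0.0169). The first call was lost without replicate 2 of either vector group and the second without any of the 4 ONECUT2 libraries, with adjusted p up to 0.0956 and 0.0958. SLC7A11 was at 13.8 and 12.2 RPKM in normoxia and 6.15 and 5.14 RPKM in hypoxia with the vector, a log2 difference of -1.19 (SE 0.19, limma adjusted p = 0.00298), and this call held with each library left out. With ONECUT2 its libraries overlapped, at 8.48 and 9.87 against 10.2 and 7.03 RPKM (limma adjusted p = 0.707). GCLM was at 10.3 and 9.84 against 8.57 and 8.71 RPKM with the vector and at 9.12 and 9.92 against 7.13 and 8.39 RPKM with ONECUT2, and passed in neither arm.

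GPX2 was low in LNCaP cells and lower in hypoxia. It was at 7.07 and 5.35 RPKM in normoxia and 3.29 and 4.29 RPKM in hypoxia with the vector (log2 difference -0.69, SE 0.22, limma adjusted p = 0.0398), a call lost on leaving out any 1 of 5 libraries: normoxic vector replicate 1, either normoxic ONECUT2 library or either hypoxic vector library. With ONECUT2 it was at 7.76 and 8.42 against 4.44 and 3.17 RPKM (-1.09, SE 0.22, limma adjusted p = 0.00914), a call lost without hypoxic ONECUT2 replicate 2. SRXN1 was at 21.2 and 25.2 against 15.9 and 15.6 RPKM with the vector (-0.55, SE 0.13, limma adjusted p = 0.0148), which was lost without normoxic vector replicate 2 or either hypoxic vector library, and at 20.4 and 20.6 against 14.2 and 17.3 RPKM with ONECUT2 (-0.38, SE 0.13, limma adjusted p = 0.0617). GPX4 and TXNRD1 overlapped between normoxia and hypoxia with the vector, at 3446 and 3851 against 3816 and 3522 RPKM and at 8445 and 8624 against 8695 and 8453 RPKM.

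With ONECUT2, NQO1 and GPX2 fell and GCLC and HMOX1 rose, so 2 members were lower, against 8.49% of all genes, and 2 higher, against 18.4%. GPX2 alone was lower by more than 2-fold at an unadjusted P under 0.05, against 1.36% of all genes, and none was higher by that rule, against 5.48%. Without hypoxic ONECUT2 replicate 2 that count was 0.

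**Figure D4:**
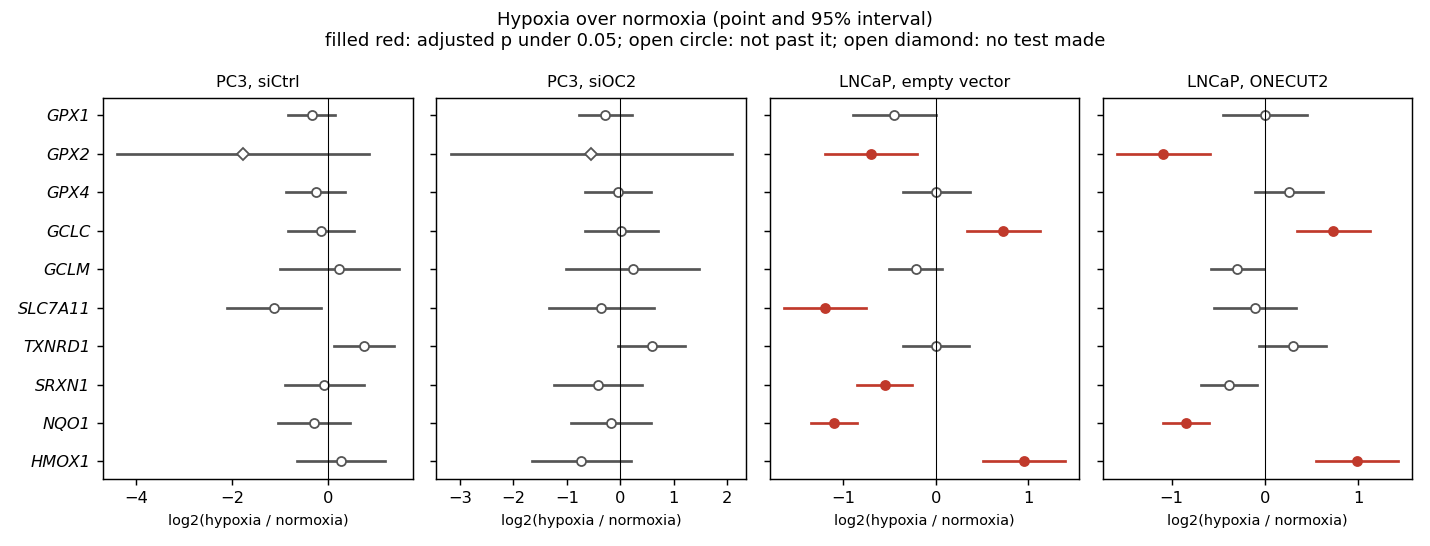
Log2 difference between hypoxia and normoxia for each gene in both arms of both lines, with 95% intervals; each panel has its own scale. NQO1 falls by 1.10 and 0.85 in LNCaP cells, and GCLC (0.73 in both arms) and HMOX1 (0.95 and 0.99) rise there. No tested point is filled in PC3 cells, where GPX2 (open diamond) was not tested.

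The lines were not compared by a test, but their hypoxia values can be set side by side. SLC7A11 differed by -1.12 in PC3 cells with siCtrl and by -1.19 in LNCaP cells with the vector. NQO1 differed by -0.29 (SE 0.33) in PC3 cells against -1.10 (SE 0.11) in LNCaP cells, and GCLC by -0.14 (SE 0.30) against 0.73 (SE 0.17). HMOX1 differed by 0.28 (SE 0.40) against 0.95 (SE 0.19). The standard errors were larger in PC3 cells for all 10 members, where the shared spread includes the difference between the siRNAs.

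Overexpression of ONECUT2 in LNCaP cells went with higher HMOX1. HMOX1 was at 3.03 and 4.50 RPKM with the vector and 6.22 and 6.47 RPKM with ONECUT2 in normoxia (log2 difference 0.76, SE 0.19, limma adjusted p = 0.0611), and at 7.69 and 6.84 against 13.9 and 11.6 RPKM in hypoxia (0.80, SE 0.19, limma adjusted p = 0.0351). The groups did not overlap at either oxygen level, and the hypoxic difference was the one that passed. It was 1 of 10 members higher at an adjusted p under 0.05, against 6.72% of all genes. This call was lost on leaving out any 1 of 6 libraries, both hypoxic vector libraries and all 4 ONECUT2 libraries, with adjusted p up to 0.223. No member was lower by this rule, against 4.82% of all genes, and in normoxia none passed in either direction, against 3.56% higher and 1.7% lower. By the 2-fold rule no member was called, against 2.81% of all genes higher and 0.48% lower in normoxia and 3.7% and 0.773% in hypoxia. Libraries without overlap were common, at 49.4% of all genes in normoxia and 66.4% in hypoxia.

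GPX2 did not show the reverse of its PC3 pattern in LNCaP cells. It was at 7.07 and 5.35 RPKM with the vector and 7.76 and 8.42 RPKM with ONECUT2 in normoxia (log2 difference 0.39, SE 0.22, limma adjusted p = 0.307), and at 3.29 and 4.29 against 4.44 and 3.17 RPKM in hypoxia (0.00, 95% interval -0.50 to 0.49). GPX1 was at 428 and 700 RPKM with the vector and 360 and 371 RPKM with ONECUT2 in normoxia (-0.58, SE 0.20, limma adjusted p = 0.119), where vector replicate 2 was well above the other 7 LNCaP libraries. SLC7A11 was lower with ONECUT2 in normoxia, at 8.48 and 9.87 against 13.8 and 12.2 RPKM (-0.50, SE 0.19, limma adjusted p = 0.164), and higher in hypoxia, at 10.2 and 7.03 against 6.15 and 5.14 RPKM (0.59, SE 0.19, limma adjusted p = 0.0875). The groups did not overlap at either oxygen level. The interaction was 1.09 on the log2 scale (SE 0.27, limma adjusted p = 0.127), and SLC7A11 was the 1 member of 10 over 2-fold at an unadjusted P under 0.05, against 2.34% of all genes, with none lower (1.35%) and none past an adjusted p of 0.05 (0.106% higher, 0.138% lower). It dropped under 2-fold without vector replicate 1 or ONECUT2 replicate 1 in normoxia, or without vector replicate 2 or ONECUT2 replicate 1 in hypoxia, to 0.82 at the lowest.

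NFE2L2 and KEAP1 did not pass the test in any comparison in which they were tested. NFE2L2 was at 32.7 and 39.6 RPKM with siCtrl and 26.7 and 34.1 RPKM with siOC2 in normoxic PC3 cells, and at 32.9 and 26.998 against 19.8 and 32.6 RPKM in hypoxia. In LNCaP cells NFE2L2 was at 57.1 and 50.5 RPKM in normoxia and 55.8 and 61.0 RPKM in hypoxia with the vector, and at 52.8 and 63.5 against 71.6 and 77.6 RPKM with ONECUT2, where the lowest adjusted p of NFE2L2 was reached (limma adjusted p = 0.0586). KEAP1 was at 57.3 to 79.8 RPKM in PC3 cells and 50.3 to 72.8 RPKM in LNCaP cells.

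A wider list of 84 other genes of glutathione, thioredoxin, quinone, heme, NADPH and superoxide metabolism and of NRF2 control gives the setting. In PC3 cells 76 of them were tested. With siOC2, 5 were higher by more than 2-fold at an unadjusted P under 0.05 and 2 were lower in normoxia, and in hypoxia, where the count is a description with no test, 9 met the same limits with higher and 1 with lower values. In normoxia 3.62% of all genes were higher and 1.59% lower by this rule, and in hypoxia 3.55% were higher and 3.95% lower. CHAC1, which degrades glutathione, was at 1.10 and 1.17 RPKM with siCtrl and 13.4 and 6.70 RPKM with siOC2 in normoxia, and at 0.509 and 0.766 against 10.3 and 5.03 RPKM in hypoxia. SESN2, sestrin 2, was at 0.639 and 0.908 against 4.65 and 4.47 RPKM in normoxia and at 1.08 in both siCtrl libraries against 4.02 and 4.51 RPKM in hypoxia. SLC3A2, the partner chain of SLC7A11, was at 31.1 and 38.0 against 57.8 and 72.6 RPKM and at 26.2 and 21.8 against 48.5 and 61.2 RPKM. None of these libraries overlapped between siCtrl and siOC2, and in normoxia the adjusted p was 0.126 for CHAC1 and 0.103 for SESN2. CHAC1, SESN2, SLC3A2 and SLC7A11 are also known as targets of the amino acid stress factor ATF4, and ATF4 activity was not examined here.

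SESN3 was also higher in the siOC2 libraries, at 2.75 and 2.74 RPKM against 0.603 and 0.872 RPKM in normoxia and at 2.95 and 3.996 against 1.15 and 1.24 RPKM in hypoxia. ABCC3, a transporter of conjugated products, was lower, at 7.77 and 6.39 against 18.1 and 19.6 RPKM and at 3.46 and 4.63 against 12.2 and 11.1 RPKM. BACH1, a repressor at AREs, was at 50.0 and 81.8 against 25.3 and 20.2 RPKM in hypoxia. TXNRD2, the mitochondrial thioredoxin reductase, was at 1659 and 843 RPKM with siCtrl and 849 and 398 RPKM with siOC2 in normoxia. In hypoxia TXNRD2 was at 557 and 803 against 1671 and 1818 RPKM. It was the 1 of the 76 genes that met the limits in the PC3 interaction, with a higher value (2.41, SE 0.60, no test). Of all genes, 0.246% met them higher and 0.696% lower. The annotation gives TXNRD2 21 transcripts, the shortest of 326 bases and the main one of 1941 bases, and their part in the TXNRD2 values was not tested. AKR1C3 and EPHX1 in normoxia and GGT1, AKR1C1 and EPHX1 in hypoxia were called higher as well. AKR1C1 and AKR1C3 can share reads with close paralogs, so their values are uncertain. With hypoxia, NQO2 was the 1 of the 76 called lower in both arms, beside 1.63% of all genes with siCtrl and 2.35% with siOC2. It was at 3.53 and 4.10 against 1.82 and 1.52 RPKM with siCtrl and at 3.19 and 4.81 against 1.10 and 1.84 RPKM with siOC2. TXNRD2 was the 1 called higher, with siOC2, beside 1.11% of all genes. EPHX1 and NQO2 were named after their values were seen.

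In LNCaP cells 71 of the 84 genes were tested, and hypoxia with the vector changed 32 of them at an adjusted p under 0.05, 12 higher and 20 lower, beside 18.2% and 14.1% of all genes. With ONECUT2 10 were higher and 11 lower, beside 18.4% and 8.49%. AKR1C3, an aldo-keto reductase of steroid metabolism and an NRF2 target, rose from 0.288 and 0.660 to 4.88 and 4.55 RPKM with the vector. The log2 difference was 3.15 (SE 0.44, limma adjusted p = 0.00166). The normoxic values of AKR1C3 were under 1 RPKM, and close paralogs make its values uncertain. GLRX, glutaredoxin, rose from 9.77 and 8.78 to 35.5 and 40.6 RPKM (2.02, SE 0.19, limma adjusted p = 0.000266), and NNT, which makes NADPH in mitochondria, from 1.29 and 0.999 to 2.93 and 3.52 RPKM (1.42, SE 0.24, limma adjusted p = 0.00328). CAT, catalase, fell from 49.7 and 54.3 to 24.1 and 26.2 RPKM (-1.04, SE 0.10, limma adjusted p = 0.000293), and CHAC1 from 7.86 and 16.2 to 4.26 and 3.63 RPKM (-1.50, SE 0.29, limma adjusted p = 0.00630). AKR1C3 and HMOX1 therefore rose in the same cells in which NQO1, CAT and SLC7A11 fell.

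ONECUT2 changed 4 of these 71 genes in normoxic LNCaP cells at an adjusted p under 0.05, with GSTA1, MAFF and MAFG higher and GPX8 lower (MAFG and GPX8 were named after their values were seen), and 12 in hypoxic ones, 6 in each direction. All genes gave 3.56% higher and 1.7% lower in normoxia and 6.72% and 4.82% in hypoxia. GSTA1, a glutathione transferase, was at 14.1 and 16.7 RPKM with the vector and 24.8 and 35.2 RPKM with ONECUT2 in normoxia, and at 7.03 and 6.87 against 100 and 73.0 RPKM in hypoxia (log2 difference 3.60, SE 0.20, limma adjusted p = 4.97e-05). GSTA1 also passed the test of the interaction (2.66, SE 0.28, limma adjusted p = 0.0135), and close GSTA paralogs make its values uncertain. MAFF, a small MAF protein, was at 1.45 and 1.58 against 5.10 and 4.70 RPKM in normoxia (1.63, SE 0.19, limma adjusted p = 0.00330), and OSGIN1 at 1.43 and 2.13 against 3.80 and 3.75 RPKM in hypoxia (1.07, SE 0.20, limma adjusted p = 0.0137). GPX3, the plasma glutathione peroxidase, was spread widely within groups, from 0.799 to 46.7 RPKM in the normoxic vector libraries, and its hypoxic difference of -5.57 (SE 1.64, limma adjusted p = 0.0636) did not pass. The hypoxic fall of GPX3 with ONECUT2, from 87.4 and 28.4 to 3.57 and 0.372 RPKM, did (limma adjusted p = 0.0465).

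Over the 8 PC3 libraries the genes whose log2 RPKM ran most closely with GPX2 were none of the other members. The highest Pearson correlations belonged to PPP1R3F (0.971), GAS6 (0.962), ASB8 (0.961), PPP2R1B (0.959) and SLC19A1 (0.955), and 59 of the genes tested had a correlation of at least 0.9. PPP2R1B was at 7.44 and 6.93 RPKM in the hypoxic siCtrl libraries and 21.9 and 15.9 RPKM in the hypoxic siOC2 libraries, and like GPX2 it was higher in normoxic siCtrl replicate 2 (13.5 RPKM) than in replicate 1 (8.05 RPKM). Of the members, SLC7A11 came nearest with 0.785, at rank 542, followed by GCLC with 0.631, while GPX4 had -0.636 and NQO1 -0.472. These are descriptions over 8 libraries that share their groups and with upper-quartile scaling none of the 5 genes stayed among the first 5.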

How the data were processed

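RNA-Seq libraries of PC3 and LNCaP cells (16 in all) were analysed, grouped by their labels. The 12 ChIP-Seq samples were not used here. The deposited RPKM values were made by the authors from TruSeq Stranded mRNA libraries: STAR 2.4.2a placed the reads on hg19, and Cufflinks 2.1.1 quantified GENCODE genes of GRCh37. The strand setting of the counting was not given in the sources used here, so genes with an antisense or overlapping partner in exons (GPX1, GCLC, SLC7A11, SRXN1 and NQO1) carry that uncertainty. Absolute depth is unknown. Relative depth was estimated from the spacing of low RPKM values and checked on simulated libraries.

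A gene was tested in a line where 2 or more libraries reached 1 RPKM, which left 12214 genes (PC3) and 12283 genes (LNCaP). Their log2(RPKM + 0.1) went into a linear model over the 4 groups of the line (limma 3.58.1, R 4.3.3, trended variance). Log2 differences are on that scale. Tests were 2-sided, with Benjamini-Hochberg adjustment over all genes tested. Calls used a fold change over 2 with an unadjusted P under 0.05, the limits of the study, or an adjusted p under 0.05. "Rose" and "fell" are kept for the latter. The fit was tested on simulated data. GPX2 in PC3, and every gene for silencing in hypoxia and for the PC3 interaction, are given with no p. Counts by the limits of the study there use the P of the fit and are descriptions, not tests. In addition, comparisons that share control libraries are not independent.

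The members and lists were chosen with earlier results of these data known. Named are all members, NFE2L2 and KEAP1, the called genes with the largest differences of each list (up to 3, members apart) and the 5 genes most correlated with GPX2.

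Promoters were read from GRCh37 with the GENCODE release 44 models lifted to that build, not the release of the authors. Alternatives were a pseudocount of 1, no filter or a minimum of 5 RPKM, upper-quartile scaling (the 75% quantile), only the groups compared, a replicate block and leaving out each library. A block with crossed replicate numbers was added after the data were seen.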

Additional observations from a re-analysis of the deposited data

Results flagged for a closer look

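SLC7A11 in LNCaP cells differed in opposite directions with ONECUT2 at the 2 oxygen levels. Both ONECUT2 libraries were below both vector libraries in normoxia and above them in hypoxia, and the difference of the differences was 1.09 on the log2 scale (SE 0.27, limma adjusted p = 0.127), which does not pass the adjusted test.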

How the results depend on the processing

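Counts of members by the 2-fold rule moved as follows. With an adjusted p under 0.05 in place of that rule, the PC3 silencing counts of 2 higher became 0 at both oxygen levels (for GPX2 and in hypoxia a description of the fit, with no test), the 1 lower in PC3 hypoxia with siCtrl became 0, the 1 higher in the LNCaP interaction became 0, the 0 higher with ONECUT2 in hypoxia became 1, and in LNCaP hypoxia 0 higher and 2 lower became 2 and 4 with the vector and 0 higher and 1 lower became 2 and 2 with ONECUT2. A pseudocount of 1, no filter or a minimum of 5 RPKM left 1 of the 2 members higher in normoxic silencing and 0 of 1 lower in PC3 hypoxia with siCtrl. The pseudocount of 1 also left 0 of 1 lower in LNCaP hypoxia with ONECUT2 and 0 of 1 in the LNCaP interaction. At an adjusted p under 0.05, no filter turned 1 into 0 for ONECUT2 in hypoxia, 2 higher into 1 in LNCaP hypoxia in both arms, and 2 lower into 1 with ONECUT2. The 4 lower with the vector became 3, through the loss of GPX2, with no filter, with only the groups compared, with the replicate block and with the crossed block. With upper-quartile scaling 0 of the 5 genes most like GPX2 stayed among the first 5. The cause of these moves was not tested.

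Leaving out 1 library at a time gave 1 to 2 members higher in normoxic silencing, and 0 to 1 for lower in hypoxic silencing, for higher and lower in PC3 hypoxia with siCtrl, for lower with siOC2, and for both directions of the PC3 interaction. In LNCaP cells it gave 0 to 1 for higher with ONECUT2 in normoxia, for higher at an adjusted p with ONECUT2 in hypoxia, for higher by fold in hypoxia in both arms, for lower by fold with ONECUT2 and for the interaction. At an adjusted p, hypoxia gave 1 to 2 higher and 2 to 4 lower with the vector and 0 to 2 higher and 1 to 3 lower with ONECUT2. Where 1 library remained in a group, it was assumed to vary like the others.

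With a replicate block the count of members higher with ONECUT2 in hypoxic LNCaP cells went from 1 to 0. Nothing in the labels says that the numbers pair the libraries across siCtrl and siOC2 or across the LNCaP groups. The correlation of deviations between same-numbered libraries ran from -0.186 to 0.618 in PC3, the highest between siOC2 groups that share an siRNA. In LNCaP it ran from -0.0648 to 0.275. For normoxic silencing the block with the given numbers called 511 genes higher and 250 lower, against 442 and 194 without a block. With crossed numbers, chosen after seeing the data, the block called 470 higher and 222 lower. At an adjusted p under 0.05, 25 genes passed with the given numbers, 0 with the crossed numbers and 1 without a block. Whether the numbers pair the libraries was not tested.

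Among 72 member values reported without a P under 0.05, 30 were counted as changing sign under some alternative, 11 of them under upper-quartile scaling. Sign changes of the untested hypoxic silencing values in PC3 cells were not counted, so 30 is a lower bound. There SRXN1 (-0.003 in the main fit) was at 0.48 with siRNA2 alone, and GCLM (-0.60) at 0.15 with siRNA1 alone. With 2 libraries a group and no read counts, small differences could not be resolved.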
